A study of Mus musculus with 21 samples.

Results

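The G1 cyclins, cyclin-dependent kinases (CDKs) and CDK inhibitors decide whether a cell enters a new division or leaves the cell cycle. The 10 genes described here were the D-type cyclins Ccnd1, Ccnd2 and Ccnd3, their kinases Cdk4 and Cdk6, the E-type cyclins Ccne1 and Ccne2, the inhibitors Cdkn1a (p21) and Cdkn1b (p27), and the retinoblastoma gene Rb1. The rule that chose them used symbols and no measured value, but the set was drawn up with earlier results of these data known. All probe sets annotated to 1 of these symbols alone were taken, which gave 28 probe sets of the 34945 with a single symbol, and 10 genes of 18193.

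Growth factors raise the D-type cyclins, which bind Cdk4 or Cdk6 and start the phosphorylation of the Rb1 protein. Cyclin E with Cdk2 carries the phosphorylation further, E2F factors are released, and the genes of DNA replication are transcribed. In the cerebellum, precursors of granule neurons divide in the external granular layer during the first postnatal weeks under Sonic hedgehog, with cyclins D1 and D2 as their main D-type cyclins, and they leave the cycle with a rise of p27 before they migrate inwards.

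The study asked how loss of cystatin B, an inhibitor of cysteine proteases whose deficiency causes progressive myoclonus epilepsy, changes gene expression in the mouse cerebellum. Whole cerebella of Cstb-/- and wild type (control) mice of the 129SvJ background were taken at postnatal day (P) 7, with 4 arrays per genotype, and at P30, with 3 arrays per genotype. Granule cell cultures came from cerebella of P5 pups whose meninges had been taken off. They were kept for 2 days in vitro in medium with calf serum, with cytosine arabinoside (AraC), which kills cells in S phase, added within the first day after plating in both genotypes, and were measured on 3 Cstb-/- and 4 control arrays. Cystatin B is lost from every cell of these mice, not from the cerebellum alone. The paper describes more hybridized samples at P7 and in the cultures than the arrays used here. Its quality control checked by principal components whether samples of a genotype grouped together. P7 samples of both genotypes and a Cstb-/- culture sample were left out of its final analysis. Effects of that choice on the spread within genotypes were not tested. The deposited values were log2 signals of Affymetrix mouse arrays, from which the median of each probe set within an experiment had been subtracted, so a level cannot be read and one gene's level cannot be set against another's. All array values below are therefore log2 signals from which the control mean of the same experiment was taken away, and all differences are Cstb-/- minus control. A probe set was said to rise or fall at a fold of at least 1.3 if its adjusted p was also below 0.05 (cerebella) or 0.01 (granule cell cultures). Adjusted p-values are those of limma with Benjamini-Hochberg adjustment over all 45037 probe sets, 2-sided. In samples of whole tissue or mixed culture, fewer cells of a type and less RNA per cell cannot be told apart. Nothing in the labels says whether granule cell arrays came from separate cultures or litters, and p-values then measure only the spread between these arrays.

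Both Cstb probe sets were far lower in Cstb-/- arrays in every experiment, with differences between -3.10 and -1.86, and no Cstb-/- array came near a control array. The sex genes of 4 granule cell arrays went against their labels: Cstb-/- array 1 was labelled male and lacked Y-linked signal, Cstb-/- array 2 was labelled female and had the male pattern, and control arrays 7 and 8 held both signals. The counts that passed in the cultures are given with and without these 4 arrays. Array values, differences, list means, correlations and the comparisons of the cultures with the cerebella include them unless stated otherwise. In the cultures 51.3% of the probe sets had at least 1 pair of arrays with the same value, against 2.86% at P7 and 2.1% at P30. Because levels were not kept, the labelled cell type could not be checked by the presence of its markers.

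The promoters of 2 members are shown because they hold motifs of factors that are known to act on this pathway. Windows of 250 bases before a transcript start, taken from RefSeq on the mouse build GRCm38.p6, were found for 6 of the 10 genes (8 windows, since Cdkn1a and Ccnd3 had 2 each). Both strands were searched for CACGTG (the E-box of Myc with Max and of other helix-loop-helix factors), TTTNNCGC (E2F), GGGCGG (the GC box of Sp1) and for a pair of CATG cores with 6 bases between them (as in a p53 element), none of which overlapped in the windows printed. The E-box reads the same on both strands and was counted once. The Cdk4 window, chr10:127063285-127063534 on the plus strand, held 4 E-boxes, which are in capitals, and they start 172, 118, 98 and 11 bases before the transcript start. The upstream Cdkn1a window, chr17:29090729-29090978 on the plus strand, held the p53 pair, with both cores in capitals, 48 bases before the start.
Cdk4: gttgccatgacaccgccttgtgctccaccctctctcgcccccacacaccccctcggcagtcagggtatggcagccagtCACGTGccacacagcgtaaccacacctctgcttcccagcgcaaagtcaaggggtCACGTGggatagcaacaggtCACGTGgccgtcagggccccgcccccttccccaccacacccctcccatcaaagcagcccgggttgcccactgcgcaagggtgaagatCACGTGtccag
Cdkn1a: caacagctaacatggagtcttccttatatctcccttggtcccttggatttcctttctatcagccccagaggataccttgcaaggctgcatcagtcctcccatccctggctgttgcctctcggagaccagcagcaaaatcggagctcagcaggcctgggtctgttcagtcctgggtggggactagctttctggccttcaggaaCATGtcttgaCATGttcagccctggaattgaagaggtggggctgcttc

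Besides Cdk4, the Cdk6 window held 1 E-box and the other member windows none. Ccnd1, Ccnd2, Ccne2 and Rb1 had no window, so their promoters were not searched for any motif. An E-box was held by 6.02% of all 32851 windows, and 4 or more by 7 windows, or 0.0213%. The paired p53 cores were held by 0.49% of the windows. The E2F letters occurred once in the Cdk6 window and in none of the other member windows, against 4.28% of all windows, and the GC box occurred in 6 of the 8 member windows, against 32.7% of all. These matches are descriptions of the letters in the window and were not tested against the array values.

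In the granule cell cultures Cdk4, Ccnd2 and Ccnd1 rose in Cstb-/-, and no member fell. Of the 28 member probe sets 10 rose, where 2.07% of all probe sets rose and 0.469% fell, 2.54% being changed in all. They were all 3 probe sets of Cdk4, 5 of the 7 of Ccnd2 and 2 of the 3 of Ccnd1. The median difference over the 28 probe sets was 0.42, against -0.02 over all probe sets, 22 were higher and 6 lower in Cstb-/-, and 21 had an unadjusted p under 0.05, where 31.6% of all did. The arrays of the genotypes did not overlap for 20 of them (17 higher and 3 lower), where this held for 22.8% of all probe sets (13.4% higher and 9.33% lower).

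**Figure D1:**
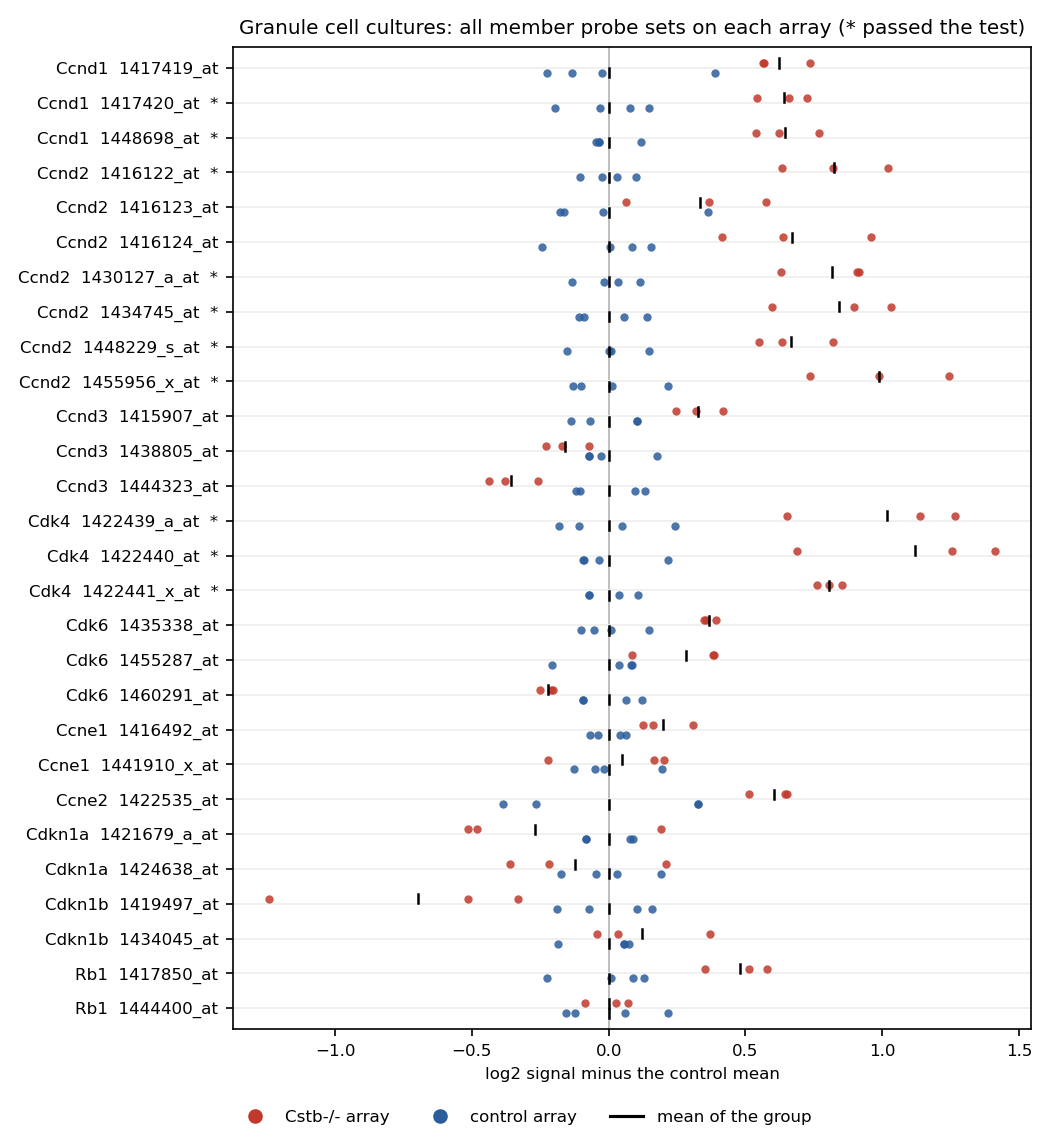
Each row is a member probe set in the granule cell cultures and the x axis is the log2 signal minus the control mean. The 3 Cstb-/- arrays are in red and the 4 control arrays in blue, with a black tick at each group's mean, and the asterisks mark the 10 probe sets that rose. All Cstb-/- arrays lie to the right of all control arrays for Cdk4 and Ccnd1, and for every Ccnd2 probe set other than 1416123_at.

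Among the D-type cyclins, Ccnd1, which couples mitogens to Cdk4 and Cdk6, gave nearly the same difference on its 3 probe sets. For 1448698_at the Cstb-/- arrays were at 0.62, 0.77 and 0.54 and the control arrays at -0.04, -0.04, -0.04 and 0.12. The Cstb-/- arrays were all higher, and the difference was 0.64 ± 0.08 (SE), or 1.56-fold (adjusted p = 0.00405, limma). For 1417420_at the Cstb-/- arrays were at 0.54, 0.73 and 0.66 and the control arrays at -0.03, -0.20, 0.08 and 0.15, a difference of 0.64 ± 0.10 (adjusted p = 0.00787, limma). The third probe set, 1417419_at, had Cstb-/- arrays at 0.57, 0.56 and 0.73 and control arrays at -0.03, 0.39, -0.14 and -0.23. The genotypes stayed apart there too, but control array 5 was high, and the difference of 0.62 ± 0.14 missed the threshold (adjusted p = 0.0329, limma).

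Ccnd2, the D-type cyclin of dividing granule cell precursors, was measured by 7 probe sets, all of them higher in Cstb-/-, by 0.34 to 0.99. The probe set 1455956_x_at had Cstb-/- arrays at 0.99, 0.74 and 1.25 and control arrays at 0.22, -0.10, -0.13 and 0.01, a difference of 0.99 ± 0.13, or 1.99-fold (adjusted p = 0.00469, limma). For 1430127_a_at the Cstb-/- arrays were at 0.63, 0.91 and 0.91 and the control arrays at 0.12, -0.13, -0.02 and 0.03, a difference of 0.82 ± 0.10 (adjusted p = 0.00289, limma). The gap between the genotypes was wider than the spread within either of them on both. The other 3 that rose were also free of overlap. Their Cstb-/- arrays were at 0.82, 0.63 and 1.02 for 1416122_at, 1.03, 0.60 and 0.90 for 1434745_at, and 0.55, 0.82 and 0.63 for 1448229_s_at. Their control arrays lay between -0.15 and 0.15, and the differences were 0.83, 0.84 and 0.67.

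Neither of the remaining Ccnd2 probe sets passed the test. For 1416124_at the Cstb-/- arrays at 0.64, 0.41 and 0.96 were all above the control arrays at 0.09, -0.24, 0.00 and 0.15, with a difference of 0.67 ± 0.14 (adjusted p = 0.0257, limma). For 1416123_at the genotypes overlapped, since Cstb-/- array 2 was at 0.06 and control array 5 at 0.36, and the difference was 0.34 ± 0.16 (adjusted p = 0.192, limma).

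Ccnd3, the third D-type cyclin, gave probe sets of opposite sign and none passed the test. The arrays of 1415907_at were at 0.42, 0.24 and 0.32 in Cstb-/- and at -0.07, 0.10, 0.10 and -0.14 in controls, a difference of 0.33 ± 0.09 (adjusted p = 0.0553, limma). Those of 1444323_at were at -0.38, -0.26 and -0.44 in Cstb-/- and at -0.11, 0.13, 0.09 and -0.12 in controls, a difference of -0.36 ± 0.09 (adjusted p = 0.0466, limma). The genotypes did not overlap on either of them, once above and once below the controls, while the third, 1438805_at, overlapped at -0.16 ± 0.09. Which transcripts of Ccnd3 each probe set reads was not examined, and no single direction can be given for this gene.

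Cdk4, the kinase partner of the D-type cyclins whose promoter with 4 E-boxes is printed above, had the largest differences of the 10 genes. For 1422440_at the Cstb-/- arrays were at 1.41, 0.69 and 1.25 and the control arrays at 0.22, -0.09, -0.03 and -0.09, a difference of 1.12 ± 0.17, or 2.17-fold (adjusted p = 0.00742, limma). For 1422439_a_at the Cstb-/- arrays were at 1.27, 0.65 and 1.14 and the control arrays at 0.24, -0.18, -0.11 and 0.05, a difference of 1.02 ± 0.16 (adjusted p = 0.00872, limma). Array 2 was well below arrays 1 and 3 on both of these probe sets. On 1422441_x_at, whose suffix marks probes that may also bind other transcripts, the 3 Cstb-/- arrays were close together at 0.85, 0.76 and 0.80, the control arrays were at -0.07, 0.04, 0.11 and -0.07, and the difference was 0.81 ± 0.08 (adjusted p = 0.000926, limma).

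Cdk6, the second kinase of the D-type cyclins, did not pass the test on any of its 3 probe sets, and these did not share a direction. The Cstb-/- arrays of 1435338_at were at 0.39, 0.36 and 0.35, above the control arrays at 0.01, 0.15, -0.10 and -0.05, with a difference of 0.37 ± 0.08 (adjusted p = 0.0273, limma). Those of 1460291_at were at -0.21, -0.25 and -0.20, below the control arrays at 0.12, -0.09, 0.06 and -0.09, with a difference of -0.22 ± 0.08 (adjusted p = 0.108, limma). Both were free of overlap, in opposite directions. On 1455287_at the genotypes overlapped and the difference was 0.28 ± 0.11 (adjusted p = 0.122, limma).

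The E-type cyclins activate Cdk2 late in G1. Ccne2 had a single probe set, with Cstb-/- arrays at 0.65, 0.51 and 0.64 and control arrays at 0.33, -0.27, -0.39 and 0.33. The genotypes did not overlap, but the controls lay in 2 pairs far from each other, and the difference of 0.60 ± 0.19 did not pass (adjusted p = 0.0753, limma). For Ccne1 the Cstb-/- arrays of 1416492_at were at 0.16, 0.13 and 0.31 and the control arrays at 0.04, -0.07, -0.04 and 0.06, a difference of 0.20 ± 0.08 (adjusted p = 0.125, limma), and 1441910_x_at overlapped at 0.05 ± 0.12. The p53 target Cdkn1a, an inhibitor of cyclin-CDK complexes, did not pass. Its probe set 1421679_a_at had Cstb-/- arrays at 0.19, -0.48 and -0.51 around control arrays at -0.08, 0.09, 0.08 and -0.08, a difference of -0.27 ± 0.17 (adjusted p = 0.294, limma). Cstb-/- array 1 was above every control array while arrays 2 and 3 were below, and the same order held for 1424638_at, at -0.12 ± 0.15.

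Cdkn1b, whose p27 product holds granule neurons out of the cycle, had the lowest value of the 28 probe sets but did not pass the test. On 1419497_at the Cstb-/- arrays were at -1.24, -0.33 and -0.51 and the control arrays at 0.10, -0.19, -0.07 and 0.16. All Cstb-/- arrays were lower, array 1 by far the most, and the difference was -0.70 ± 0.20 (adjusted p = 0.0653, limma). The other probe set of this gene, 1434045_at, did not show it, with Cstb-/- arrays at 0.37, 0.03 and -0.04 and a difference of 0.12 ± 0.12 (adjusted p = 0.498, limma). Rb1, the substrate of these kinases, had Cstb-/- arrays at 0.58, 0.35 and 0.51 against control arrays at 0.13, -0.23, 0.09 and 0.01 on 1417850_at, a difference of 0.48 ± 0.11 (adjusted p = 0.0272, limma), and 0.00 ± 0.11 on 1444400_at. Thus the 2 probe sets of each of Cdkn1b and Rb1 differed in what they showed.

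The count of 10 depended on single arrays. It was 2 without Cstb-/- array 1, 9 without Cstb-/- array 2, 1 without Cstb-/- array 3, and 4, 2, 1 and 1 without control arrays 4, 5, 7 and 8, respectively. The count over all 45037 probe sets moved too, from 1144 to 371, 2685 and 320 without Cstb-/- arrays 1, 2 and 3. Without control arrays 4, 5, 7 and 8 it was 852, 454, 343 and 302. The Cdk4 probe set 1422441_x_at passed in all 7 of these fits. The largest adjusted p that any of the 10 took in them was 0.0474 (limma), so that the loss was of the threshold of 0.01 and none lost its direction. Leaving out the 4 arrays whose sex genes went against their labels needed 1 fit over all groups, in which the lone Cstb-/- array was assumed to vary like the rest. With all arrays that fit gave 13 member probe sets that rose, 9 of them among the 10, where 9.21% of all probe sets rose. Without the 4 arrays it gave 5, 3 of Cdk4 and 2 of Ccnd2 and 4 of them among the 10, where 5.8% of all rose. With the t-test of the study's methods corrected over all probe sets, 0 member probe sets passed, where 32 of all 45037 did. When it was corrected only over those that reached the fold, 4 member probe sets passed, where 628 of all did.

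The genes downstream of these regulators were read from lists, with the lowest-numbered probe set of each gene. Over all 18193 genes 2.68% rose and 0.0934% fell in the cultures. Of 19 S phase genes transcribed under E2F, 13 rose and none fell, with a median of 1.00 over the list, against 0.00 over all genes. Those with the smallest p were Ccna2 (1.63), the S phase cyclin, the helicase subunits Mcm5 (1.26) and Mcm6 (1.09), and the replication licensing factor Cdt1 (0.83). Of 15 mitotic genes 12 rose with a median of 1.46, led by the mitotic kinases Cdk1 (1.85), Plk1 (1.46) and Aurka (1.36) and the B-type cyclin Ccnb2 (2.34). The mean of the S phase list was 0.87 to 1.03 on the Cstb-/- arrays against -0.16 to 0.13 on the control arrays, and that of the mitotic list 1.40 to 1.46 against -0.11 to 0.07. On both lists the Cstb-/- arrays stood far above every control array.

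The mean of 26 other regulators of G1 and S phase was 0.31 to 0.39 on Cstb-/- and -0.08 to 0.04 on control arrays. Of these 26 genes 3 rose, where 2.68% of all genes did, with a median of 0.28 over the list. They were Cks1b (1.25), a partner of CDKs and of the Skp2 ligase, the repressor E2f7 (1.08), itself an E2F target, and Cdkn2c (0.88), an inhibitor of Cdk4 and Cdk6. The retinoblastoma relative Rbl1 had a large difference without passing (1.36, adjusted p = 0.0119, limma). Of 16 mitogen inputs of granule cell precursors, the Notch target Hes1 (0.58) rose, and Myc, which acts at E-boxes, was at 0.87 without passing (adjusted p = 0.0232, limma). The median of that list was 0.11. Of 18 p53 targets, Eda2r (0.81) and Ccng1 (0.74) rose, and the median was 0.15. In the 1 fit over all groups with all arrays, 17 S phase genes, 13 mitotic genes, 9 other G1 and S phase regulators, 2 mitogen inputs and 4 p53 targets rose, where 10.9% of all genes did. Without the 4 arrays named above the same fit gave 15, 13, 7, 1 and 3, where 7.13% of all genes rose.

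Markers of other cell types moved in the same arrays. Of 12 markers of meningeal fibroblasts 5 rose, namely the collagens Col1a2 (3.41), Col3a1 (3.49) and Col1a1 (3.59), together with Lum (1.94) and Islr (0.87). The mean of the whole list was 1.15 to 1.21 on the Cstb-/- arrays against -0.04 to 0.04 on the controls. Its median was lower, at 0.45, and 2 of the 12, Dcn (-0.28) and Ptgds (-0.22), were lower in Cstb-/-. Smooth muscle cells and pericytes had 3 of 10 markers that rose, Tagln (2.39), Acta2 (2.25) and Myl9 (2.44), with list means of 0.68 to 0.83 against -0.06 to 0.08. These 3 genes carried that mean: the median of the list was 0.11, and 5 of the 10, among them the pericyte genes Anpep (-0.18), Kcnj8 (-0.14) and Abcc9 (-0.07), were lower in Cstb-/-. Of 12 markers of astrocytes and Bergmann glia 2 rose, Aldh1l1 (0.76) and Gja1 (1.67), with list means of 0.38 to 0.59 against -0.11 to 0.21. The median of this list was 0.42, and 1 of the 12, Slc1a2 (-0.24), was lower. Of 8 markers of oligodendrocyte precursors 2 rose, Olig2 (1.00) and Pdgfra (0.84), with list means of 0.21 to 0.54 against -0.04 to 0.09. Here the median was 0.41, and 2 of the 8, Sox10 (-0.19) and C1ql1 (-0.17), were lower. In each of these 4 lists every Cstb-/- array was above every control array. The means of the Purkinje cell list were also apart (0.09 to 0.23 against -0.03 to 0.05), and those of the microglia list (-0.22 to -0.11 against -0.10 to 0.12) and of the endothelial list (-0.19 to -0.06 against -0.05 to 0.09) were lower in every Cstb-/- array, by narrow gaps.

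Markers of the granule cell lineage did not share this. Of 9 markers of granule cell precursors 1 rose, Mfap4 (0.92), which encodes a microfibril-associated protein, and Atoh1, the transcription factor that defines these precursors, was at 0.29 (adjusted p = 0.106, limma). The list mean was 0.02 to 0.14 on the Cstb-/- arrays and -0.05 to 0.04 on the controls, which overlap. Of 11 markers of mature granule neurons none rose and Fat2 (-0.62) fell, with a median of 0.01. No marker of microglia, endothelial cells, choroid plexus, oligodendrocytes or Purkinje cells passed the test in the cultures. In the 1 fit over all groups, 5 fibroblast, 4 smooth muscle, 6 astrocyte, 3 oligodendrocyte precursor and 1 granule cell precursor markers rose, and 1 marker each of mature granule neurons and of oligodendrocytes fell. Without the 4 arrays named above that fit gave 4, 3, 3, 1 and 0 that rose, and again 1 and 1 that fell. The part of these cell types in the differences of Cdk4, Ccnd2 and Ccnd1 was not tested, and since levels were not kept, no defining marker can be said to be absent from either genotype.

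**Figure D2:**
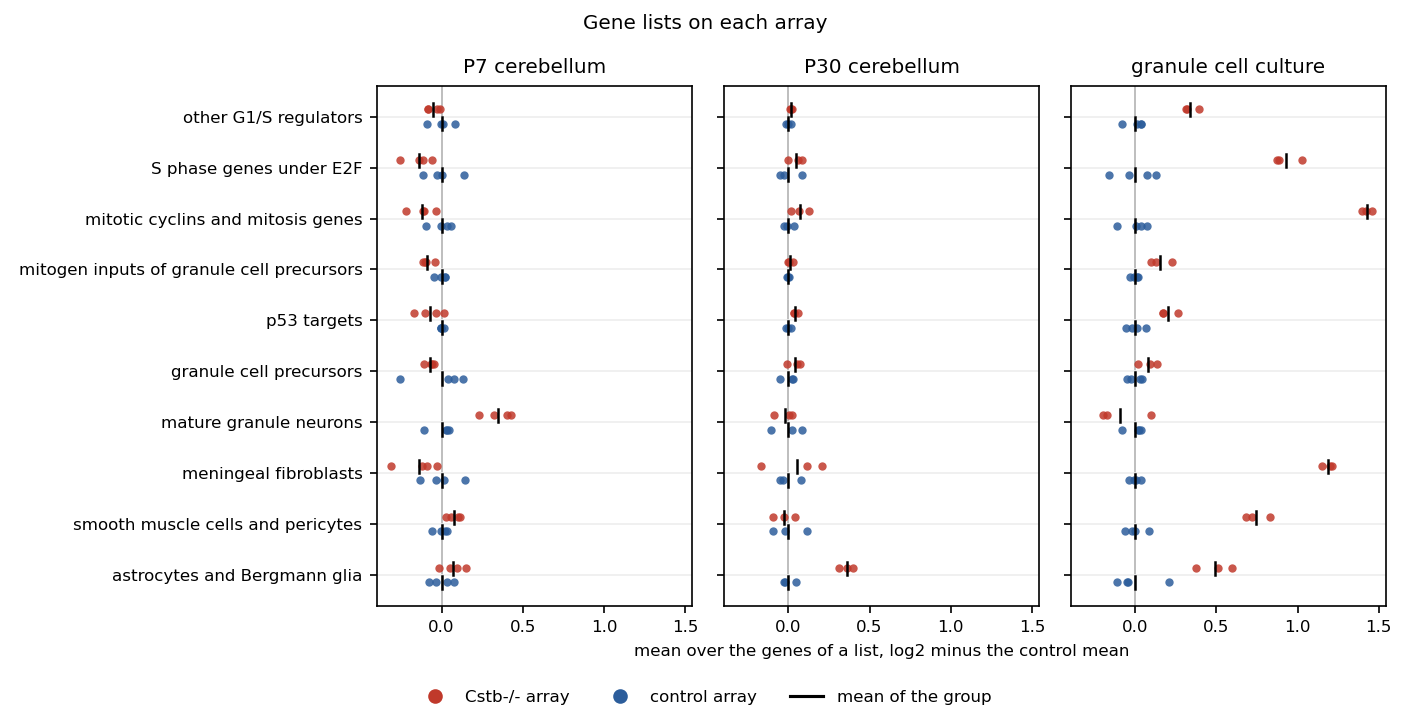
Each row is a gene list, each panel an experiment and the x axis the mean over the measured genes of the list, in log2, minus the control mean. Cstb-/- arrays are in red and control arrays in blue, with a black tick at each group's mean. In the cultures the S phase list (0.87 to 1.03), the mitotic list (1.40 to 1.46) and the fibroblast list (1.15 to 1.21) lie far to the right in Cstb-/-, and in the cerebella the lowest mean of these lists is -0.31, that of the fibroblast list on a P7 Cstb-/- array.

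The genes whose values were most like those of Cdk4 1422441_x_at over the 7 culture arrays were the mitotic checkpoint kinase Bub1b (Pearson r = 0.999), Rtraf (r = 0.997) and the matricellular protein gene Ccn1 (r = 0.995). For Ccnd2 1430127_a_at they were Sh3pxd2a (r = 0.996), Mrps9 (r = 0.994) and Nupr1 (r = 0.994). The 7 arrays fall into the 2 genotypes and share their normalization, so that any gene with a large and even difference gives such a value, and the correlations are descriptions.

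In the P7 cerebellum no member probe set passed the test. Of the 28, 11 were higher and 17 lower in Cstb-/-, with a median of -0.02, against 0.01 over all probe sets, and the smallest adjusted p was 0.366 (limma). With the t-test of the study's methods none passed either. Only 0.00666% of all probe sets changed at this age. The arrays did not overlap for 6 member probe sets, 1 higher and 5 lower, where this held for 5.65% of all (2.8% higher and 2.84% lower), and 5 had an unadjusted p under 0.05, where 9.45% of all did. These 6 belonged to Ccne2, Cdk6, Rb1 and Cdkn1a.

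Ccne2, which marks the passage from G1 to S phase, had the lowest value of the members at P7. Its Cstb-/- arrays were at -0.20, -0.45, -0.31 and -0.85 and its control arrays at -0.16, 0.16, -0.02 and 0.03. The genotypes were separated only narrowly, and the difference was -0.45 ± 0.13 (adjusted p = 0.366, limma). With the labelled sex in the fit, since 3 of 4 Cstb-/- arrays but 1 of 4 control arrays were labelled male, it was -0.58 and passed the test (adjusted p = 0.0458, limma). In that fit 1 of the 28 member probe sets and 1108 of all 45037 probe sets passed, against 3 of all without the labelled sex.

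For Cdk6 the Cstb-/- arrays of 1460291_at were at -0.20, -0.30, -0.25 and -0.36 against control arrays at 0.22, 0.00, -0.10 and -0.12, a difference of -0.28 ± 0.09 (adjusted p = 0.411, limma). Those of 1455287_at were at -0.17, -0.29, -0.46 and -0.18 against -0.10, -0.02, 0.25 and -0.13, a difference of -0.27 ± 0.10 (adjusted p = 0.455, limma). The third Cdk6 probe set, 1435338_at, overlapped at -0.09 ± 0.09. Both Rb1 probe sets were lower in every Cstb-/- array, by small amounts. On 1417850_at the Cstb-/- arrays were at -0.15, -0.11, -0.17 and -0.37 and the control arrays at -0.07, 0.06, -0.01 and 0.02, a difference of -0.20 ± 0.07 (adjusted p = 0.472, limma). On 1444400_at they were at -0.24, -0.09, -0.24 and -0.15 against 0.11, -0.05, -0.01 and -0.05, a difference of -0.18 ± 0.07 (adjusted p = 0.494, limma).

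The inhibitor Cdkn1a had Cstb-/- arrays at 0.29, 0.37, 0.24 and 0.28 on 1421679_a_at and control arrays at 0.09, 0.22, -0.48 and 0.17. The genotypes did not overlap, but 3 of the controls were close to the Cstb-/- arrays and control array 3 was far below, and the difference was 0.29 ± 0.13 (adjusted p = 0.530, limma). Its other probe set was at 0.06 ± 0.08. The genes that rose in the cultures did not pass the test here. The 3 probe sets of Cdk4 were at -0.04, -0.02 and 0.01 and the 3 of Ccnd1 at -0.02, -0.11 and -0.06, each with a standard error between 0.10 and 0.12. For Cdk4 1422439_a_at the Cstb-/- arrays were at 0.08, -0.05, -0.11 and -0.09 and the control arrays at 0.20, 0.13, -0.32 and 0.00, so that the controls enclosed them. The 7 probe sets of Ccnd2 ranged from -0.06 to 0.27. Control array 3 was the lowest of the controls on all 7, and on 1448229_s_at it was at -0.97, with the other controls at 0.34, 0.35 and 0.28 and the Cstb-/- arrays at 0.41, 0.38, 0.16 and 0.15.

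For the remaining members at P7 the Cstb-/- arrays of Ccnd1 1417419_at were at 0.22, -0.15, -0.10 and -0.04 and the control arrays at 0.11, 0.13, -0.13 and -0.11. Those of Ccnd3 1415907_at were at 0.11, -0.03, -0.10 and -0.01 against 0.18, -0.05, -0.33 and 0.20. Those of Ccne1 1416492_at were at 0.02, -0.03, 0.01 and -0.01 against 0.13, 0.14, -0.29 and 0.02. In all of these the genotypes overlapped. Cdkn1b 1419497_at had Cstb-/- arrays at -0.44, -0.02, 0.34 and 0.21, a wider spread than its controls at -0.07, -0.01, -0.07 and 0.15, and its difference was 0.02 ± 0.14 (adjusted p = 0.968, limma).

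The lists gave no call at P7 either, where 0.0055% of all genes changed, all downwards. Of 19 S phase genes 16 were lower in Cstb-/- with a median of -0.15, and of 15 mitotic genes 13 were lower with a median of -0.11, against a median of 0.01 over all genes. The S phase gene with the smallest p was Cdc6, which loads the replicative helicase, at -0.36 (adjusted p = 0.292, limma). Of 16 mitogen inputs 13 were lower, among them Mycn (-0.28), a target of Sonic hedgehog in these precursors, and its receptor Ptch1 (-0.31). All 11 markers of mature granule neurons were higher with a median of 0.32, and their list mean was 0.23 to 0.43 on the Cstb-/- arrays against -0.11 to 0.05 on the controls. All 9 markers of oligodendrocytes were higher with a median of 0.58 (0.52 to 1.12 against -0.27 to 0.24). All 9 markers of choroid plexus were lower with a median of -1.03 (-2.15 to -0.41 against -0.33 to 0.26). None of these genes passed the test, and the part of the tissue composition in the values of the members was not tested.

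In the P30 cerebellum, when granule cells have left the cycle, no member probe set passed the test either, where 0.144% of all probe sets changed. Of the 28, 17 were higher and 11 lower in Cstb-/-, the median was 0.05 against -0.01 over all, and the smallest adjusted p was 0.406 (limma). The arrays did not overlap for 4 member probe sets, 3 higher and 1 lower, where this held for 12.5% of all (6.24% higher and 6.25% lower), and 2 had an unadjusted p under 0.05, where 7.72% of all did. The largest of the 4 was Cdk6 1435338_at, with Cstb-/- arrays at 0.18, 0.39 and 0.30 and control arrays at 0.05, -0.03 and -0.02, a difference of 0.29 ± 0.08 (adjusted p = 0.406, limma).

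Cdk4 was higher on all 3 probe sets, by 0.11 to 0.22. On 1422440_at the Cstb-/- arrays were at 0.20, 0.15 and 0.12 and the control arrays at 0.02, -0.07 and 0.05, without overlap and with a difference of 0.15 ± 0.07 (adjusted p = 0.658, limma). Ccnd2 1416123_at, at 0.09, 0.13 and 0.18 against -0.06, 0.00 and 0.07, differed by 0.13 ± 0.07 (adjusted p = 0.710, limma). The other 6 Ccnd2 probe sets were between -0.10 and 0.09. Ccnd3 1444323_at, at -0.14, -0.24 and -0.16 against 0.21, -0.07 and -0.14, differed by -0.18 ± 0.10 (adjusted p = 0.715, limma), and its Cstb-/- array 1 lay next to control array 3.

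**Figure D3:**
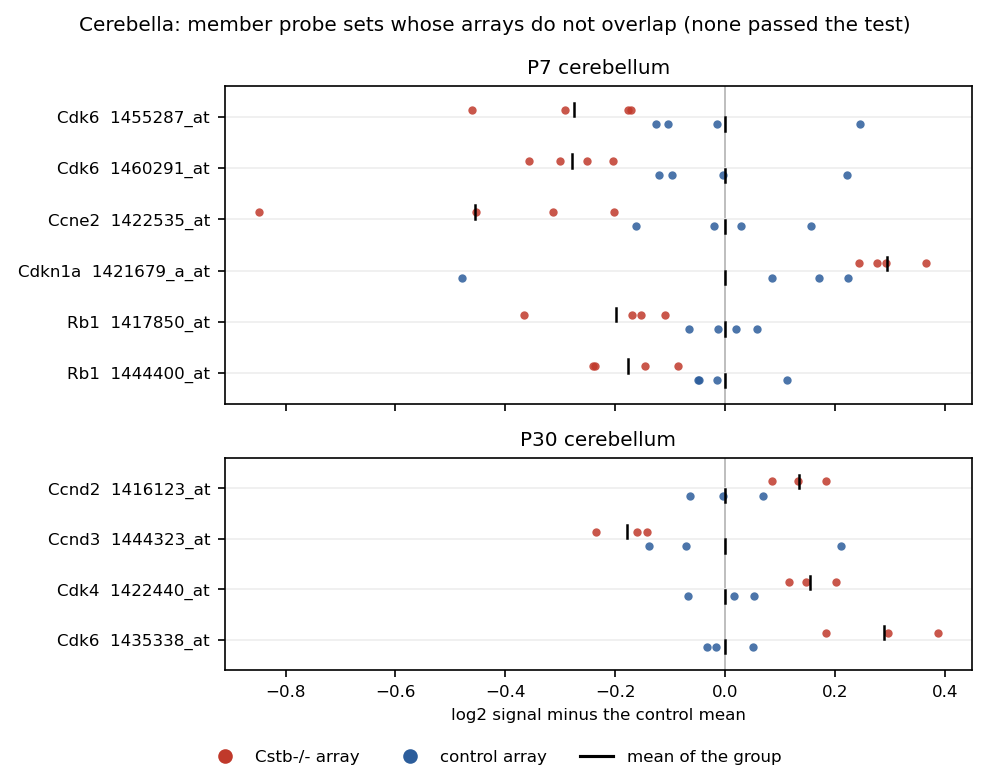
The member probe sets whose arrays do not overlap between genotypes, at P7 above and at P30 below; the x axis is the log2 signal minus the control mean, Cstb-/- arrays are in red and control arrays in blue, with a black tick at each group's mean. The gaps between the genotypes are narrow, as for Ccne2 at P7 (-0.20 against -0.16), and none of these probe sets passed the test.

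Cdkn1a was higher on both probe sets at P30 with overlapping arrays. On 1421679_a_at the Cstb-/- arrays were at 0.25, 0.11 and 0.50 and the control arrays at 0.16, 0.05 and -0.22, a difference of 0.28 ± 0.13 (adjusted p = 0.650, limma). The remaining members overlapped as well. The Cstb-/- arrays of Ccnd1 1417419_at were at 0.06, -0.33 and 0.15 against controls at 0.07, -0.09 and 0.02, and those of Ccne1 1416492_at at 0.13, -0.24 and 0.24 against -0.01, 0.01 and 0.00. Ccne2 was at -0.10, -0.14 and -0.11 against -0.14, -0.12 and 0.26. Array 2 of Cstb-/- was the lowest of all on these Ccnd1 and Ccne1 probe sets. Cdkn1b 1419497_at was at -0.76, 0.09 and -0.18 against 0.21, 0.02 and -0.23, a difference of -0.28 ± 0.20 (adjusted p = 0.782, limma), and Rb1 1417850_at at 0.11, 0.01 and 0.16 against 0.01, 0.02 and -0.03.

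No gene of the S phase, mitotic, mitogen, p53 or other G1 and S phase lists passed the test at P30, with medians between 0.01 and 0.07. Over all genes 0.187% rose. Of 11 markers of microglia and macrophages 7 rose with a median of 0.90, among them Tyrobp (2.20) and C1qc (1.76), and their list mean was 1.03 to 1.18 on the Cstb-/- arrays against -0.12 to 0.14 on the controls. Of 12 markers of astrocytes and Bergmann glia, Gfap (2.15) rose. The part of these cells in the Cdk6, Cdk4 and Cdkn1a values was not tested.

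**Figure D4:**
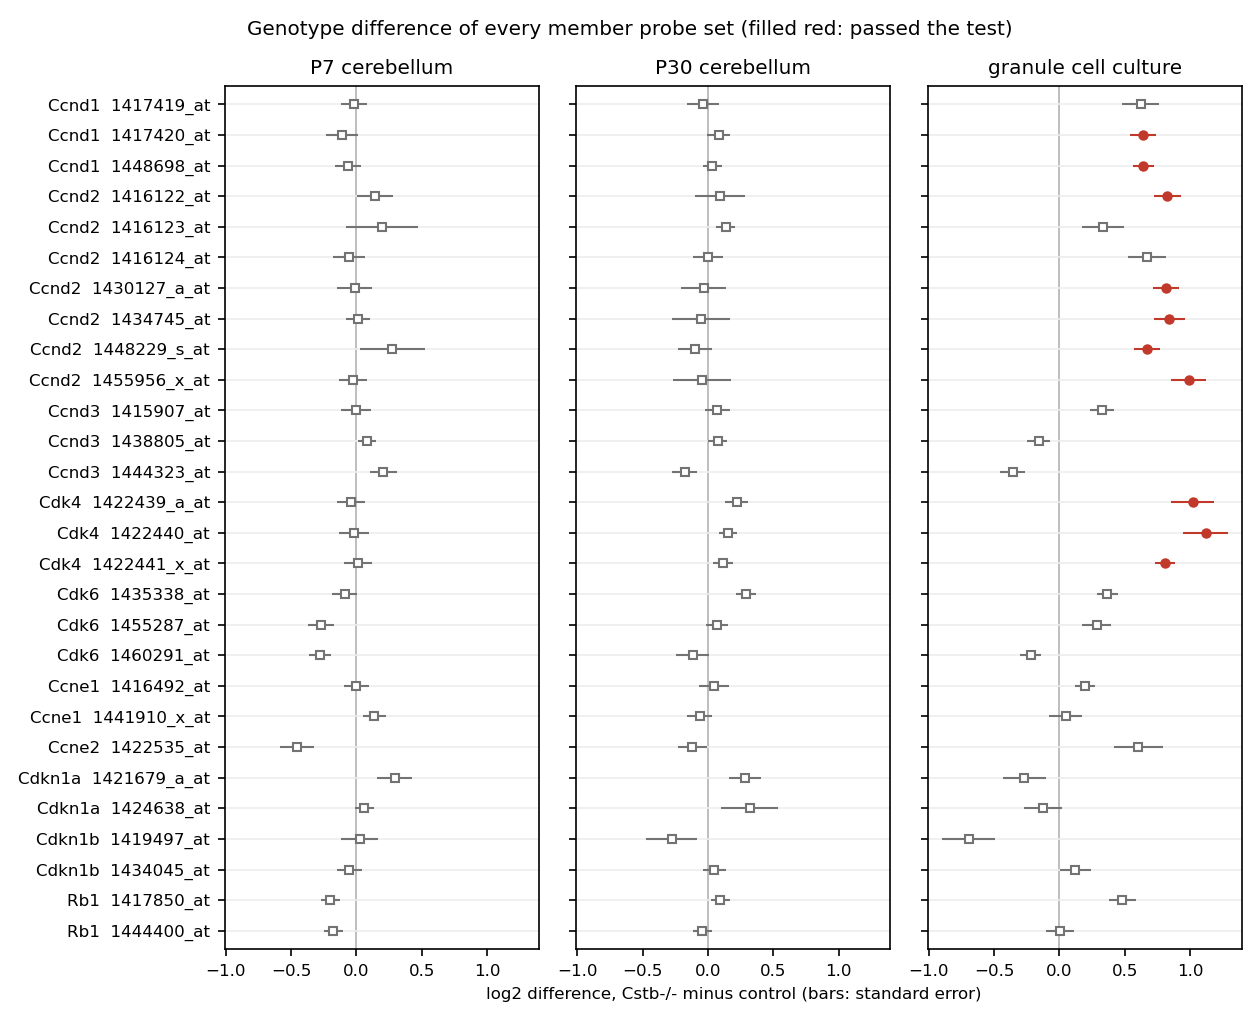
The difference between Cstb-/- and control on the log2 scale (x axis) with its standard error (bars) for all 28 member probe sets (rows) in the 3 experiments (panels). Filled red circles are the 10 probe sets that rose, all in the granule cell cultures, and open squares the probe sets that did not pass; the values run from -0.45 to 0.29 at P7, from -0.28 to 0.32 at P30 and from -0.70 to 1.12 in the cultures.

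Whether the difference itself changed between experiments was tested by contrasts in 1 limma fit over all 6 groups at an adjusted p under 0.05. Between P7 and P30 it changed for 0 of 28 member probe sets, where it did for 0.124% of all, and the smallest adjusted p was 0.435 (limma). An unadjusted p under 0.05 was found for 4 of the 28, where 7.78% of all had one. With array weights 1 passed, Cdk6 1435338_at, where 1.09% of all did. Between the cultures and P7 it changed for 16 of 28, where it did for 20.3% of all probe sets, 15 of them being higher in the cultures. Between the cultures and P30 it changed for 7 of 28, where it did for 5.1% of all, and all 7 were higher in the cultures. The 7 were all 3 of Cdk4, 3 of Ccnd2 and 1 of Ccnd1. The count of 7 moved to 11 without P7 control array 3 or without culture Cstb-/- array 2, to 4 without P30 Cstb-/- array 1, and to 3 without P30 control array 3 or culture Cstb-/- array 3. Counts over all probe sets in these refits are not given, so whether the members moved more than the rest cannot be told.

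Ccne2 had opposite signs in the cultures and at P7 (0.60 and -0.45), and its change of 1.06 between them passed (adjusted p = 0.00215, limma). Rb1 1417850_at did so as well, at 0.48 and -0.20, with a change of 0.68 (adjusted p = 0.000426, limma). In the limma fit of each experiment by itself neither passed. In this fit over all groups both passed in the cultures (adjusted p = 0.00902 for Ccne2 and 0.000354 for Rb1, limma), where 9.21% of all probe sets rose. Without the 4 arrays of doubtful sex their differences were 0.61 and 0.56, but these rest on a lone Cstb-/- array. The other Rb1 probe set, 1444400_at, was at 0.00 in the cultures. Ccnd3 1444323_at was the one member probe set whose change downwards passed, from 0.21 at P7 to -0.36 in the cultures (-0.56, adjusted p = 0.00928, limma). The cultures were made from P5 pups, and age, culture, AraC and the day of processing cannot be told apart between the cultures and the cerebella.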

How the data were processed

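Each sample's total RNA was measured on 1 Affymetrix mouse expression array. Per the labels and the methods, the authors used RMA for background correction, quantile normalization and probe set summaries, which the submitters' processing notes name without a version, and deposited log2 values from which the median of each probe set had been subtracted. The median of every probe set was 0 within each experiment, so that levels, and a filter on low signal, could not be had. The number of arrays limits the precision.

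Of the probe sets, 64 controls were left out. Of the 45037 tested, 34945 had 1 gene symbol in the platform annotation. Cstb-/- was compared with wild type within each experiment by limma 3.58.1 (lmFit and eBayes, R 4.3.3), without covariates, with the thresholds of the study's methods. Scripts were tested on simulated data. Differences between experiments were contrasts in 1 fit over all 6 groups. Replicate numbers were not used as pairs: same-numbered arrays deviated together with correlations of 0.006 to 0.168 at P7 and of -0.178 to -0.034 at P30.

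The members and the gene lists were chosen with earlier results of these data known. By the rule for named genes, all 10 members were described, with array values for each probe set that passed or did not overlap and for the lowest-numbered probe set of each other member, and up to 4 genes per list with the smallest p; the fifth fibroblast marker and further list genes were named after their values were seen. Alternatives were the t-test of the methods, the fold and p thresholds, robust and array-weighted fits, 1 fit over all groups, sex, replicate block, array medians, means over probe sets and leaving out each array. Labelled sex was fitted at P7 and in the cultures only, and the replicate block in the cerebella only. After the data had been seen, a fit without the 4 granule cell arrays of doubtful sex was added.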

Additional observations from a re-analysis of the deposited data

Results flagged for a closer look

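Of 84 groups of 4 control or Cstb-/- arrays in which a lone far value was looked for, 4 held one, and chance gives about 1 in 20. In the P7 cerebellum control array 3 was at -0.97 on Ccnd2 1448229_s_at, with the other controls between 0.28 and 0.35. In the granule cell cultures control array 8 was at 0.12 on Ccnd1 1448698_at (others -0.04), control array 7 at -0.21 on Cdk6 1455287_at (others 0.04 to 0.09), and control array 5 at -0.19 on Cdkn1b 1434045_at (others 0.06 to 0.07).

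The genotype difference was larger in the granule cell cultures than in the P7 cerebellum, by the limma contrast, for Cdk4 by 1.06 (1422439_a_at), 1.14 (1422440_at) and 0.79 (1422441_x_at), and for Ccnd1 by 0.64 (1417419_at), 0.76 (1417420_at) and 0.71 (1448698_at). For Ccnd2 the change was 0.68 (1416122_at), 0.73 (1416124_at), 0.83 (1430127_a_at), 0.83 (1434745_at) and 1.01 (1455956_x_at). It was 1.06 for Ccne2, 0.46 and 0.56 for Cdk6 1435338_at and 1455287_at, 0.68 for Rb1 1417850_at and -0.56 for Ccnd3 1444323_at. Against the P30 cerebellum the cultures differed by 0.80, 0.96 and 0.69 for the Cdk4 probe sets in the same order, by 0.85, 0.90 and 1.03 for Ccnd2 1430127_a_at, 1434745_at and 1455956_x_at, and by 0.61 for Ccnd1 1448698_at.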

How the results depend on the processing

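The values hold no levels, so signal over background could not be weighed. In the P7 cerebellum the count of member probe sets that passed was 0 under every alternative other than the labelled sex as a covariate, under which it was 1 (1 gene, Ccne2) and the count over all probe sets went from 3 to 1108. In the P30 cerebellum it was 0 under every alternative that was run there. Labelled sex was not among them, although 1 Cstb-/- array was labelled female and 2 male, and all 3 control arrays male. The paper describes all P30 animals as male. The count over all probe sets at P30 went from 65 to 226 with array weights. It went to 210 with the t-test of the methods over the probe sets past the fold (203 at P7), and to 1 with that test over all probe sets. In the granule cells the 10 member probe sets and 3 genes became 0 and 0 with the t-test over all probe sets, 4 probe sets with the t-test over those past the fold, and 13 probe sets of 5 genes in 1 fit over all groups. In that fit without the 4 arrays of doubtful sex 5 probe sets passed, against 13 with them. Leaving out each array gave 1 to 9 probe sets and 1 to 3 genes, and over all probe sets 302 to 2685 against 1144. Over all probe sets 5725 passed in 1 fit over all groups, 4075 at an adjusted p under 0.05, 2828 with array weights and 32 and 628 with the t-tests. With the mean over the probe sets of a gene, 3 of the 10 member genes passed in the granule cells, where 829 of all 18193 genes did. In the cerebella 0 member genes passed, where 4 of all genes did at P7 and 53 at P30. For the difference between experiments array weights gave 1 member probe set in place of 0 for P30 against P7. They gave 13 in place of 7 for granule cells against P30. Leaving out each array gave 3 to 11 in place of 7 there, and 14 to 18 in place of 16 for granule cells against P7. Counts over all probe sets are not given for these refits of granule cells against the cerebella, so the members cannot be set against them. With the replicate number as a block, 0 member probe sets passed at P7 and P30, and 2 and 49 over all, and 0 changed between P30 and P7; at P7 1 array of 3, and at P30 0 of 3, correlated best with its own number. Granule cell arrays of the genotypes share no number. The 47 named values were each a member probe set in 1 experiment. Of their 786 alternative values, 30 changed sign, none of them for a value that had passed. The cause of these changes was not tested.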
